A study of Drosophila sechellia and Drosophila melanogaster and Drosophila simulans with 18 samples.

Results

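The response of adult *D. melanogaster* females to L-DOPA in their food is described here across all genes of the species' table. The flies were of strain 14021-0231.36, had emerged 0 to 3 days earlier, and spent 24 h on instant food that held 10 mg/ml L-DOPA or on the same food without it. RNA came from 10 whole females per library, with 3 libraries per food, and the libraries were selected for mRNA. For each gene the authors' table holds 1 FPKM value (fragments per kilobase of transcript, scaled to the number of reads) for control food and 1 for L-DOPA food, each estimated from the 3 libraries together. The members were the genes with the status OK in that table that reached 1 FPKM on one food or both, which left 10513 of 17649 genes (59.6%). The tables of the whole series list 50294 genes in 3 species.

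L-DOPA is made from tyrosine by tyrosine hydroxylase (*ple*) and is turned into dopamine by dopa decarboxylase (*Ddc*). Dopamine is a transmitter in the fly brain, and in the epidermis its acylated derivatives harden and colour the cuticle. Catechols such as L-DOPA and dopamine oxidize readily to quinones, which insects handle with conjugating enzymes, among them the glutathione S-transferases. In an adult female a large share of the body's RNA belongs to the ovary, whose follicle cells secrete the vitelline membrane and then the chorion, the inner and outer layers of the eggshell.

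The combined values hold no spread between the libraries, so no SD or test could be given. The study lists reads per library, and for this species an L-DOPA library had the most, but depth was not used here. The part of depth in low values and in those listed at 0 was not tested. A gene was called higher or lower on L-DOPA where the ratio of the 2 values was at least 1.5-fold, which is 0.58 on the log2 scale. A gene under 1 FPKM on one food was kept only through the other food, so the floor fixed its direction. Every change below is the log2 ratio of L-DOPA to control FPKM, and describes these libraries only. The labelled tissue and sex matched the markers. The yolk protein genes *Yp1*, *Yp2* and *Yp3* had at least 4159.9 FPKM on each food, while none of the 11 male reproductive markers in the table reached 1 FPKM and 6 were listed at 0. Of a wider list of 73 male reproductive genes 4 were kept, and 1 of these, *Acp65Aa*, is a cuticle protein gene caught by its symbol. Markers of eye, muscle, gut, fat body, haemocytes and nervous system each reached 1 FPKM.

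Expression was close to equal on both foods for most genes. Of the 10513 genes, 381 were called higher (3.62%) and 247 lower (2.35%), and the median change was 0.00 with an interquartile range from -0.09 to 0.10. Of the same genes 5365 were above 0 (51.0%) and 5148 below it. Among the 6741 genes of at least 10 FPKM on either food the shares were 2.54% and 1.28%. Among the 9607 protein-coding genes, 225 were higher (2.34%) and 129 lower (1.34%). These shares are the base for the counts in the gene lists below. The 381 and the 225 both include 40 near-identical histone copies, of which 0 were lower. Reads cannot be assigned to one of these copies, so they are not separate observations. The spread was wider at low levels. From 1 to 10 FPKM on average, the central 95% of protein-coding genes lay between -0.54 and 0.70, and from 10 to 100 FPKM between -0.28 and 0.38. At 100 FPKM or more it lay between -0.37 and 0.50. Just inside the limit were *CG1143* at 0.59 (12.9 FPKM on control food and 19.4 on L-DOPA) and *CG13465* at -0.59. Just outside it was *RNASEK* at 0.58 (219.7 and 329 FPKM).

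Small structural RNA genes took a large part of the calls. Of 255 kept genes for small nucleolar, small nuclear, ribosomal and other such RNAs, 103 were higher and 54 lower, together 61.6% of the list. They took in 38 of the 47 genes listed at 0 on one food. *snoRNA:185* was listed at 0 on control food and had 461 FPKM on L-DOPA, whereas *snmRNA:838* had 100.9 FPKM on control food and was listed at 0 on L-DOPA. Mitochondrial tRNA genes were not on this list, and of these *mt:tRNA:Ile-GAT* had 188 FPKM on control food and was listed at 0 on L-DOPA. The median longest transcript of the list was 137 bases, and the libraries were selected for mRNA. The part of length and of this selection in these calls was not tested. The genes of the list were left out of the largest changes given next.

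**Figure D1:**
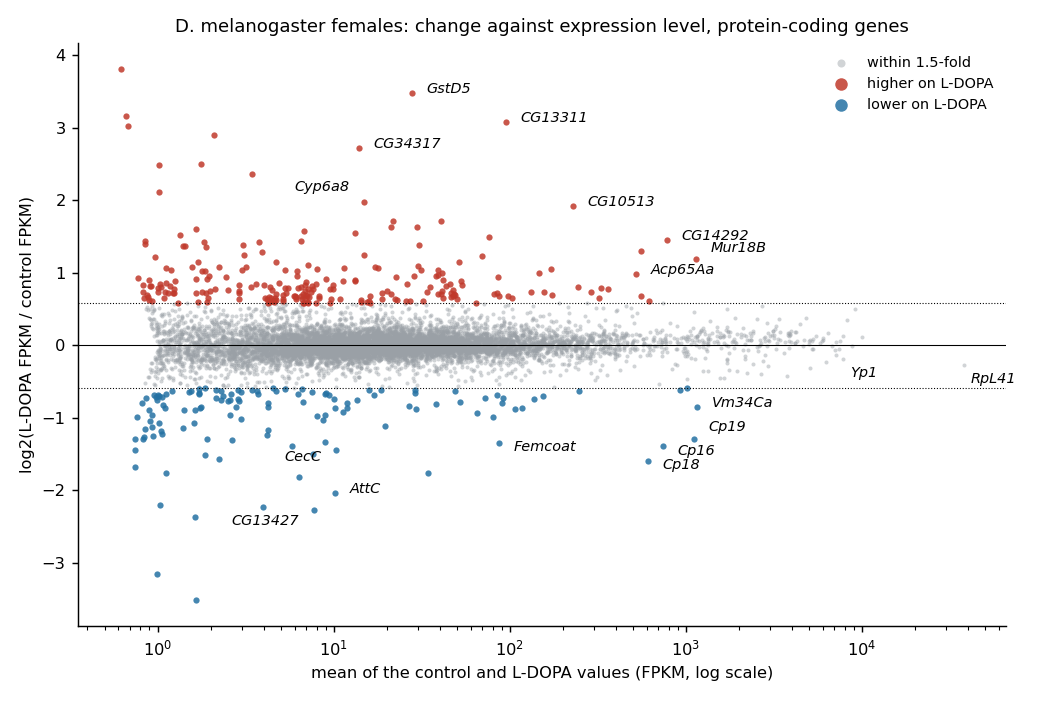
Change against expression level for protein-coding genes, with the mean FPKM of both foods on a log axis and the log2 ratio of L-DOPA to control FPKM on the other. Each point is 1 gene, and the dotted lines mark 1.5-fold. Most genes lie within the lines, and at high expression the lower genes are mainly chorion and vitelline membrane genes (*Cp18*, *Cp16*, *Cp19*, *Vm34Ca*).

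The gene with the largest increase among those of at least 10 FPKM was *GstD5*, a delta-class glutathione S-transferase gene, with 4.58 FPKM on control food and 51.1 on L-DOPA (3.48). *CG13311* followed with 20.2 and 170.2 FPKM (3.07). *CG34317* had 3.68 and 24.2 FPKM (2.72), but it shares its span and strand with *CG7950*, which was lower (38.1 and 20.7 FPKM, -0.88). Reads of these 2 genes could have been divided between them in more than one way. The cytochrome P450 genes *Cyp6a8* (6.03 and 23.8 FPKM, 1.98) and *Cyp309a1* (10.2 FPKM on L-DOPA, 1.57) and the fat body protein genes *Fbp1* (1.55) and *Fbp2* (1.38) were among the 15 largest increases. The other members of that group had CG symbols without a role in the files. Of these, *CG14292* was at 417 FPKM on control food and 1143 on L-DOPA (1.45), *CG14245* at 322 and 791 (1.30), and *CG10513* at 95.6 and 362 (1.92). Of the 225 protein-coding genes called higher, 122 had such symbols (54.2%), beside 42.4% of all protein-coding genes kept. The 225 include 40 histone copies, which have other symbols.

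The largest decrease was that of *CG13427*, from 12.8 to 2.64 FPKM (-2.28). *AttC*, which encodes the antibacterial peptide attacin C, had 16.5 and 4.02 FPKM (-2.04), and *CG13947* had 52.8 and 15.6 (-1.76). The mitochondrial *mt:tRNA:Cys-GCA* (-1.71) overlaps a tRNA gene on the other strand. The chorion genes *Cp18*, *Cp16* and *Cp19*, the eggshell gene *Femcoat* and the cecropin gene *CecC* were also among the 15 largest decreases. Among the abundant protein-coding genes, those of at least 100 FPKM on average, 18 were higher and 11 lower. Of the 11, the 9 genes *Cp15*, *Cp16*, *Cp18*, *Cp19*, *Cp7Fa*, *Vm32E*, *Vm34Ca*, *Vml* and *dec-1* encode eggshell proteins.

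**Figure D2:**
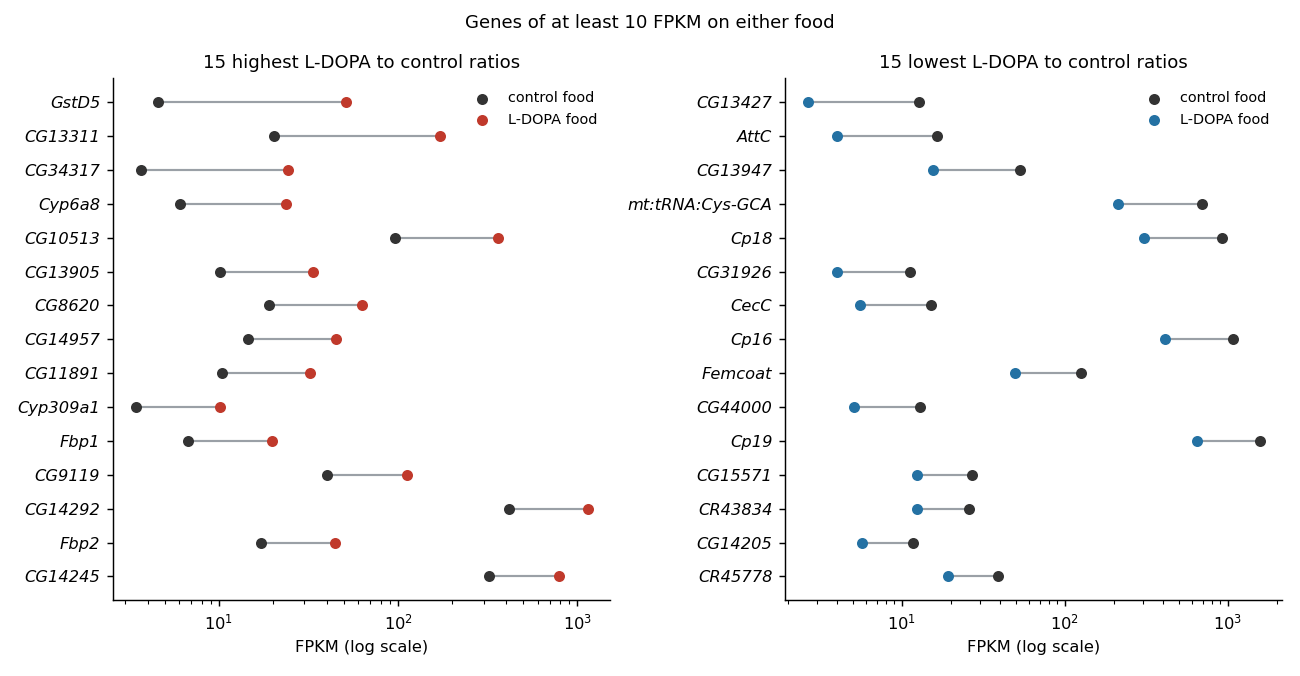
FPKM on a log axis for the 15 genes with the highest and the 15 with the lowest ratio of L-DOPA to control, among genes of at least 10 FPKM on either food and outside the small structural RNA list. Dark points are control food and coloured points L-DOPA food, each the authors' value over 3 libraries. *CG14292* and *Cp19* are the genes at the right end of each panel.

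Genes of dopamine synthesis, transport and turnover changed little. Of 17 members kept, 0 were past the limit, 12 were above 0, and the median was 0.09. The tyrosine hydroxylase gene *ple* had 19.4 FPKM on control food and 21.3 on L-DOPA (0.13), and *Ddc* had 15.1 and 16.6 (0.14). *Pu* and *Dhpr*, whose enzymes make and recycle the pterin cofactor of the hydroxylase, stood at 0.15 and 0.09, and *Catsup*, a negative regulator of it, at 0.11. The transporter genes *Vmat* (10.2 and 10.6 FPKM) and *DAT* (2.27 and 2.45 FPKM) stood at 0.06 and 0.11. *AANATL2*, an arylalkylamine N-acetyltransferase gene, had the largest value of the list (13.4 and 16.9 FPKM, 0.34). The genes of the beta-alanyl branch that stores and releases dopamine for the cuticle were near 0 or below it, with *e* at -0.03, *t* at -0.14 and *b* at 0.02. Of the genes for serotonin and tyramine synthesis, *Trh* had 1.29 and 1.37 FPKM, *Tdc2* had 1.24 FPKM on L-DOPA (-0.20), and *Tdc1* had 4.56 and 4.98 FPKM (0.13). Of the amine receptor genes, 4 of 16 were kept, and their changes ran from -0.15 to 0.09. The enzymes that break down phenylalanine and tyrosine (6 kept) ran from -0.19 to 0.12, with *Hn*, the phenylalanine hydroxylase gene, the most abundant at 70.7 and 63.7 FPKM (-0.15). Of 12 phenoloxidase and melanization genes 1 was higher, *Mco1*, a multicopper oxidase gene (5.61 and 8.90 FPKM, 0.67). The laccase gene *laccase2*, needed for cuticle tanning, had 3.60 and 3.74 FPKM (0.06), and *PPO1* and *PPO2*, the prophenoloxidase genes, stood at 0.33 and -0.11. All 9 kept genes of the yellow family outside the eggshell were within the limit.

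Of 28 eggshell genes kept, 10 were lower past the limit and 25 were below 0, and of the germline genes given below none was past it. All 9 chorion genes were below 0, 5 of them past the limit, with a median of -0.62. The 4 genes of the chorion cluster on arm 3L were all past the limit: *Cp18* had 923 and 304 FPKM (-1.60), *Cp16* 1072 and 411 (-1.38), *Cp19* 1573 and 644 (-1.29) and *Cp15* 1123 and 732 (-0.62). Of the 5 genes of the X-linked cluster, *Cp7Fa* was past it (139.6 and 76.3 FPKM, -0.87), while *Cp7Fb*, *Cp7Fc*, *Cp36* and *Cp38* ran from -0.38 to -0.19. Summed over its genes, the 3L cluster stood at 4691 FPKM on control food and 2091 on L-DOPA (-1.17) and the X cluster at 4893 and 4169.6 (-0.23). Follicle cells amplify both clusters, and the 3L genes are mostly active later in eggshell formation than *Cp36* and *Cp38*. Whether the clusters differ beyond the spread between libraries was not tested. The germline markers *osk* (-0.08), *nos* (-0.22) and *vas* (-0.21) were also below 0, within the limit. Of the 27 maternal germline genes given below, 17 were below 0 and 10 above it. The part of the germline in the eggshell values was not tested. In whole flies, fewer cells of a type and less RNA per cell cannot be told apart.

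Of 19 vitelline membrane and other eggshell genes, 5 were past the limit and lower, 16 were below 0, and the median was -0.30. *Femcoat* had 126 and 49.2 FPKM (-1.35), *Vm34Ca* 1502 and 831 (-0.85) and *Vml* 171 and 102 (-0.74). The most abundant member, *Vm26Aa*, had 4323 and 3225 FPKM (-0.42). The members at or above 0 were *fs(1)Ya*, *tsl* and *pip*, of which *tsl* and *pip* act in patterning the embryo from the eggshell. The yolk protein genes *Yp1* (8311 and 7290.0 FPKM), *Yp2* and *Yp3* ran from -0.23 to 0.03, and *yl*, the yolk receptor gene, stood at 0.07. None of 27 maternal germline genes was past the limit (median -0.05), with *otu* (-0.30), *exu* (-0.27) and *bcd* (-0.25) the farthest from 0. Of these genes 17 were below 0 and 10 above it, among the latter the most abundant, *pgc* (435 and 459 FPKM, 0.08). The 37 cell cycle and replication genes ran from -0.22 to 0.27 with a median of 0.01.

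Of 11 delta glutathione S-transferase genes, 6 were higher, 10 were above 0 and the median was 0.65. The 2 largest were those of *GstD5*, given above, and *GstD6*, which went from 0.148 to 1.21 FPKM (3.03). *GstD6* reached 1 FPKM only on L-DOPA, so it could be kept only as a higher gene. *GstD10* (4.09 and 8.30 FPKM, 1.02), *GstD9* (18.6 and 33.6, 0.85), *GstD8* (0.72) and *GstD7* (0.65) were also higher. The most abundant member, *GstD1*, stood at 1306 FPKM on control food and 1360.3 on L-DOPA (0.06), and *GstD2* at 51.1 and 43.5 (-0.23). These genes are alike in sequence, so reads could be divided between them. Of 25 other glutathione S-transferase genes 1 was higher, *GstE3* (75.3 and 121 FPKM, 0.69), and their median was 0.09. Among 70 cytochrome P450 genes, 4 were higher, 1 was lower and the median was 0.06. *Cyp6a2* (6.28 and 11.9 FPKM, 0.92), like *Cyp6a8* a member of the Cyp6a family, was higher, *Cyp9b2* was at 1.08, and *Cyp4e3* was lower (-0.80). None of 10 UDP-glycosyltransferase, 19 carboxylesterase and 5 multidrug transporter genes was past the limit. *Est-6*, the esterase 6 gene, had 56.1 and 62.5 FPKM (0.16). Of 26 genes of oxidative stress defence 1 was higher, the peroxidase gene *Pxd*, at 0.620 and 1.03 FPKM. The superoxide dismutase gene *Sod1* stood at 0.06, the catalase gene *Cat* at 0.08, and *cnc* and *Keap1*, the regulator pair of the antioxidant response, at -0.04 and 0.02. Together these lists outside the delta class had 6 of 154 genes higher (3.90%), beside 3.62% of all genes kept and 2.34% of protein-coding genes kept. Of the 6, *Pxd* reached 1 FPKM only on L-DOPA, so it could be kept only as a higher gene. The 22 heat shock genes ran from -0.26 to 0.32, the 6 genes for metallothioneins and their regulator *MTF-1* from -0.40 (*MtnB*) to 0.36 (*MtnA*), and the 7 iron storage and transport genes from -0.21 (*Fer2LCH*, the ferritin light chain gene) to 0.30.

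Of 11 maltase genes, whose enzymes split sugars, 7 were higher on L-DOPA (63.6%, beside 3.62% of all genes kept) and 0 lower, with a median of 0.62. *Mal-A1* had 98.4 FPKM on control food and 196 on L-DOPA (0.99), *Mal-A6* 58.9 and 113 (0.94), *tobi*, a glucosidase gene, 27.4 and 54.8 (1.00), and *Mal-A7* 11.6 and 24.3 (1.07). *Mal-A5* (80.9 and 76.2 FPKM), *Mal-B1* and *Mal-B2* were between -0.26 and 0.03. The amylase genes *Amy-p* (402 and 575 FPKM) and *Amy-d* (176 and 254), which are near-identical copies, stood at 0.52 and 0.53, inside the limit. Of 10 amylase and other glycosidase genes 3 were past it and higher, the mannosidase gene *LManIII* (1.07), the glucocerebrosidase gene *Gba1a* (1.05) and *Amyrel* (0.66, from 0.687 to 1.09 FPKM). In a list of lipases 4 of 11 were higher (36.4%, beside 3.62% of all genes kept), and the median was 0.04. Of the 4, *Lip3* (0.620 and 1.16 FPKM) reached 1 FPKM only on L-DOPA, so it could be kept only as a higher gene. Among the 9 lipases of at least 10 FPKM 2 were higher. The gut proteases of the Jonah and trypsin families were spread around 0, with 2 of 31 higher (*Ser8*, *Jon99Ci*), 2 lower (*Jon66Cii*, *Jon66Ci*) and a median of -0.01. The most abundant of them, *Jon65Aiv*, had 3240.3 and 2650.3 FPKM (-0.29). None of 7 sugar transport and trehalose genes was past the limit, with the trehalose synthase gene *Tps1* at 0.11 and the trehalose transporter gene *Tret1-1* at 0.06.

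Structural cuticle protein genes were mostly above 0. Of 121 such genes, 44 were kept, and of these 10 were higher, 1 was lower, 36 were above 0 and the median was 0.38. *Acp65Aa*, an adult cuticle protein gene, had 350.3 FPKM on control food and 695 on L-DOPA (0.99), *Acp1* had 218 and 364 (0.74), and *Cpr49Ae*, the most abundant, had 489.6 and 748 (0.61). *Cpr49Ah* (7.33 and 12.6 FPKM) and *Cpr92A* (3.88 and 6.68 FPKM) were both higher. The other 5 higher members were below 8 FPKM on both foods, and the lower one, *Edg91*, went from 1.16 to 0.525 FPKM. *Lcp1* (0.931 and 1.53 FPKM), *Cpr49Ac* (0.818 and 2.50 FPKM) and *Cpr50Cb* (0.875 and 1.02 FPKM) reached 1 FPKM only on L-DOPA, so they could be kept only above 0. *Edg91* reached it only on control food, so it could be kept only below 0. Among the 18 members of at least 10 FPKM, 4 were higher, 0 were lower and the median was 0.44. Of 30 genes for peritrophins, chitin binding and chitin remodelling, 1 was higher, the chitin synthase gene *kkv* (0.915 and 1.56 FPKM, 0.77), and 1 was lower, the mucin-like *Muc4B* (-0.62). *Gasp*, a chitin-binding protein gene, had 34.3 and 44.3 FPKM (0.37), and the chitin deacetylase genes *serp* and *verm* stood at 0.36 and 0.33. Enzymes of cuticular hydrocarbon synthesis were within the limit in 15 of 15 cases, with *Cyp4g1*, the oxidative decarbonylase gene, at 1089 and 1173 FPKM (0.11) and *Desat2* at 0.29.

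Of 10 genes on a list of storage and haemolymph proteins 5 were higher past the limit (50%, beside 3.62% of all genes kept), and the most abundant ones were within it. *Fbp1* went from 6.69 to 19.7 FPKM, *Fbp2* from 17.1 to 44.4, and the larval serum protein genes *Lsp1alpha* (1.04), *Lsp1beta* (0.78) and *Lsp1gamma* (0.64) were higher. *Lsp2* (70.6 and 77.0 FPKM, 0.13) and *apolpp*, the lipophorin gene (116 and 112 FPKM, -0.05), were within it, and the median was 0.43. *apolpp* and *Lsp2*, like *Fbp1*, served as fat body markers, so these markers did not move together. Of 28 odorant-binding protein genes 3 were higher (10.7%, beside 3.62% of all genes kept), and the median was 0.18. The 3 were *Obp99a* (242 and 417 FPKM, 0.78), *Obp99b* (99.3 and 165 FPKM, 0.73) and *Obp83g* (0.59). *Obp99c*, the most abundant, had 1374 and 1643 FPKM (0.26). Only 5 of 185 odorant, gustatory and ionotropic receptor genes were kept, and 1 was lower, *Ir7c* (11.6 and 7.23 FPKM, -0.68).

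Of 26 antimicrobial peptide genes 7 were lower (26.9%) and 1 was higher (3.85%), and the median was -0.09. Over all genes kept the shares were 2.35% lower and 3.62% higher. The 7 were the attacin genes *AttA* (13.2 and 7.27 FPKM, -0.86), *AttB* (9.97 and 2.83, -1.82) and *AttC*, the cecropin genes *CecA1* (-0.66), *CecA2* (-1.39) and *CecC* (5.50 FPKM on L-DOPA, -1.45), and *Drsl2* (-0.97). *AttA* and *AttB* are near-identical, as are *CecA1* and *CecA2*, so their reads could be divided between them. Each of the 7 had less than 20 FPKM on control food. All members of at least 100 FPKM on control food were within the limit, among them *Drs*, the drosomycin gene, at 1148 and 1357 FPKM (0.24), *Drsl5* at 222 and 186 (-0.26), *DptB* at 108 and 81.8 (-0.40) and *Def* at -0.08, and *DptA* and *Mtk*, at lower levels, stood at 0.02 and 0.20. *Listericin* was the higher member (30.9 and 52.1 FPKM, 0.75). Of 5 Turandot stress peptide genes, *TotA* (152 and 83.2 FPKM, -0.87) and *TotM* (90.2 and 54.5 FPKM, -0.73) were lower, *TotC* was just inside the limit (215 and 144.5 FPKM, -0.57) and *TotB* was higher at about 1 FPKM. None of 36 genes for recognition proteins and for the Imd and Toll pathways was past the limit, the farthest being *PGRP-SB1* (32.6 and 23.7 FPKM, -0.46). Among 7 lysozyme genes *LysC*, a pseudogene in the annotation that overlaps *LysD*, was higher (2.98 and 6.44 FPKM).

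**Figure D3:**
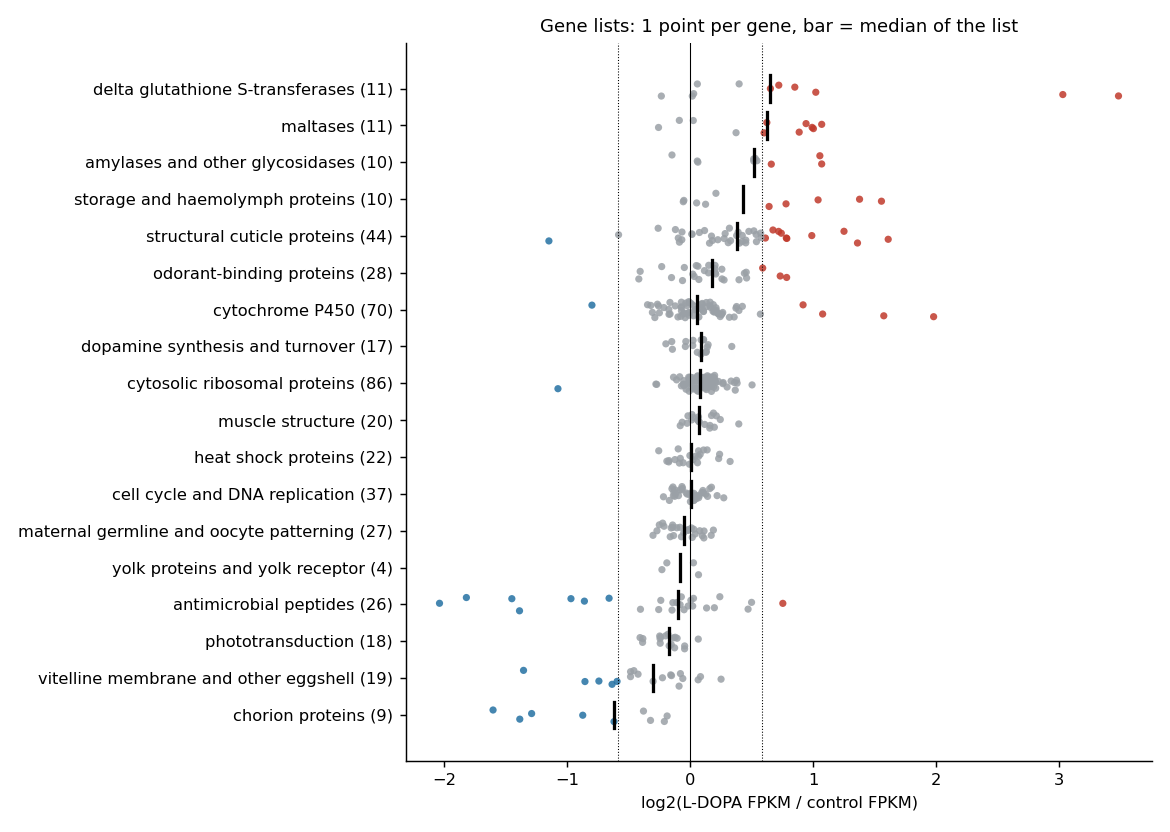
Log2 ratio of L-DOPA to control FPKM for the members of 18 gene lists, with 1 point per gene and the number of genes kept in brackets. Black bars are medians, red points are higher and blue points lower past 1.5-fold (dotted lines). The medians run from -0.62 for chorion genes to 0.65 for delta glutathione S-transferases, and the dopamine list lies within the lines.

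In other tissues and processes few genes were past the limit. Over all genes kept 51.0% were above 0, the share to set beside the counts given here. Of 18 phototransduction genes 17 were below 0, with a median of -0.18 and 0 past the limit. The channel gene *trp* had 78.4 and 59.1 FPKM (-0.41), the myosin gene *ninaC* 85.6 and 65.6 (-0.38) and the rhodopsin gene *ninaE* 1133 and 999.9 (-0.18). The 18 eye pigment genes had a median of -0.01. Of 20 muscle genes 16 were above 0 (median 0.07), among them *Act88F*, the flight muscle actin gene (1002 and 1187 FPKM, 0.25). Of 24 genes of insulin, adipokinetic hormone and nutrient state, 18 were below 0 (median -0.08). *Ilp4* was past the limit at about 1 FPKM, *Ilp3* had 10.0 and 7.54 FPKM (-0.41), and *Ilp8* had 23.6 and 35.0 (0.57). Among 31 neuropeptide genes *SIFa* was lower (5.45 and 3.62 FPKM, -0.59) and *Pburs*, a subunit gene of the tanning hormone bursicon, was higher (0.586 and 1.36 FPKM, 1.21). *CCAP*, the crustacean cardioactive peptide gene, had 6.43 and 4.31 FPKM (-0.58). The ecdysone list (21 kept) had 1 lower member, *shd*, the ecdysone 20-hydroxylase gene (2.11 and 1.34 FPKM), and the 13 juvenile hormone and 10 clock genes had none past the limit.

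Of the housekeeping lists, those of cytosolic ribosomal, mitochondrial ribosomal and nuclear respiratory chain genes had medians slightly above 0. Rescaling both foods to the same sum, which shifts all genes alike, moved the median gene from 0.00 to -0.03. Of 86 cytosolic ribosomal protein genes 68 were above 0 (median 0.08), led by *RpL39* (7551 and 10703 FPKM, 0.50), while *RpL41*, the most abundant, was at -0.27 and *RpL37b*, the 1 member past the limit, was lower (2.20 and 1.04 FPKM). The nuclear genes of the respiratory chain had a median of 0.08, with *UQCR-11* at 0.47. The 73 mitochondrial ribosomal protein genes had a median of 0.06 and 34 proteasome genes a median of 0.01. Of 13 mitochondrially encoded proteins 9 were kept, 8 of them above 0 (median 0.40), with *mt:ND3* at 112 and 231 FPKM (1.05) and *mt:CoII* at 7456 and 8133 (0.13). The other 4, *mt:ATPase6*, *mt:ATPase8*, *mt:CoI* and *mt:CoIII*, were listed at 0 on both foods with a status for too many reads. Transcript length moved with these small shifts. Among protein-coding genes of at least 10 FPKM, 56.2% of the 217 with a longest transcript up to 500 bases were above 0, and 41.6% of the 743 over 4000 bases. The median longest transcript was 877 bases in the ribosomal list, beside 1918 for all protein-coding genes kept. The part of length in these shifts was not tested.

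Several changes were shared by neighbouring genes. Runs of at least 3 neighbouring protein-coding genes past the limit in one direction numbered 10 for higher and 3 for lower genes, with 37 and 11 genes in them. Of the 10, 4 runs with 13 of the 37 genes were repeated histone copies on 2L, whose reads cannot be assigned to one copy. The 16.0 kb of the *GstD* cluster on arm 3R (BDGP6, 12364776 to 12380815) held 10 genes. The 4 genes *GstD5* to *GstD8* and the pair *GstD10* and *GstD9* at the other end were higher, and *GstD1* to *GstD4* between them ran from -0.23 to 0.40. In the *Mal-A* cluster on arm 2R (8449664 to 8473961) 6 of 8 genes were higher. Within 5.67 kb on arm 3L (8801540 to 8807213) all 5 genes were higher: *CG13311*, *CG34426* (11.1 and 23.4 FPKM, 1.08), *CG32023* (38.9 and 68.9 FPKM, 0.82), *CG34427* (0.532 and 3.00 FPKM) and *CG13312* (0.0823 and 1.15 FPKM). This region is a run of genes called higher, so its count follows from how it was chosen. *CG34427* and *CG13312* reached 1 FPKM only on L-DOPA, so they could be kept only as higher genes. The longest run was on arm 3R, where 6 genes from 25270209 to 25283237 were higher: *CG11889*, *CG11891*, *CG11878*, *CG10513*, *CG10514* and *CG11892*. *CG11889* and *CG11891* have the same span, so their reads could be divided. Over 47.9 kb from the first of them to *CG10553*, 12 of 20 kept genes were higher and 1, *CG31097*, was lower. The ends of this window were set at runs of genes called higher, so its share is not a separate result. The runs of lower genes were the 3L chorion cluster (8726791 to 8732599), the 3 cecropin genes on arm 3R (30210874 to 30216938) and 4 genes on X from *CG32642* to *CG12716* (12959220 to 12976231), with changes from -0.73 to -0.60.

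**Figure D4:**
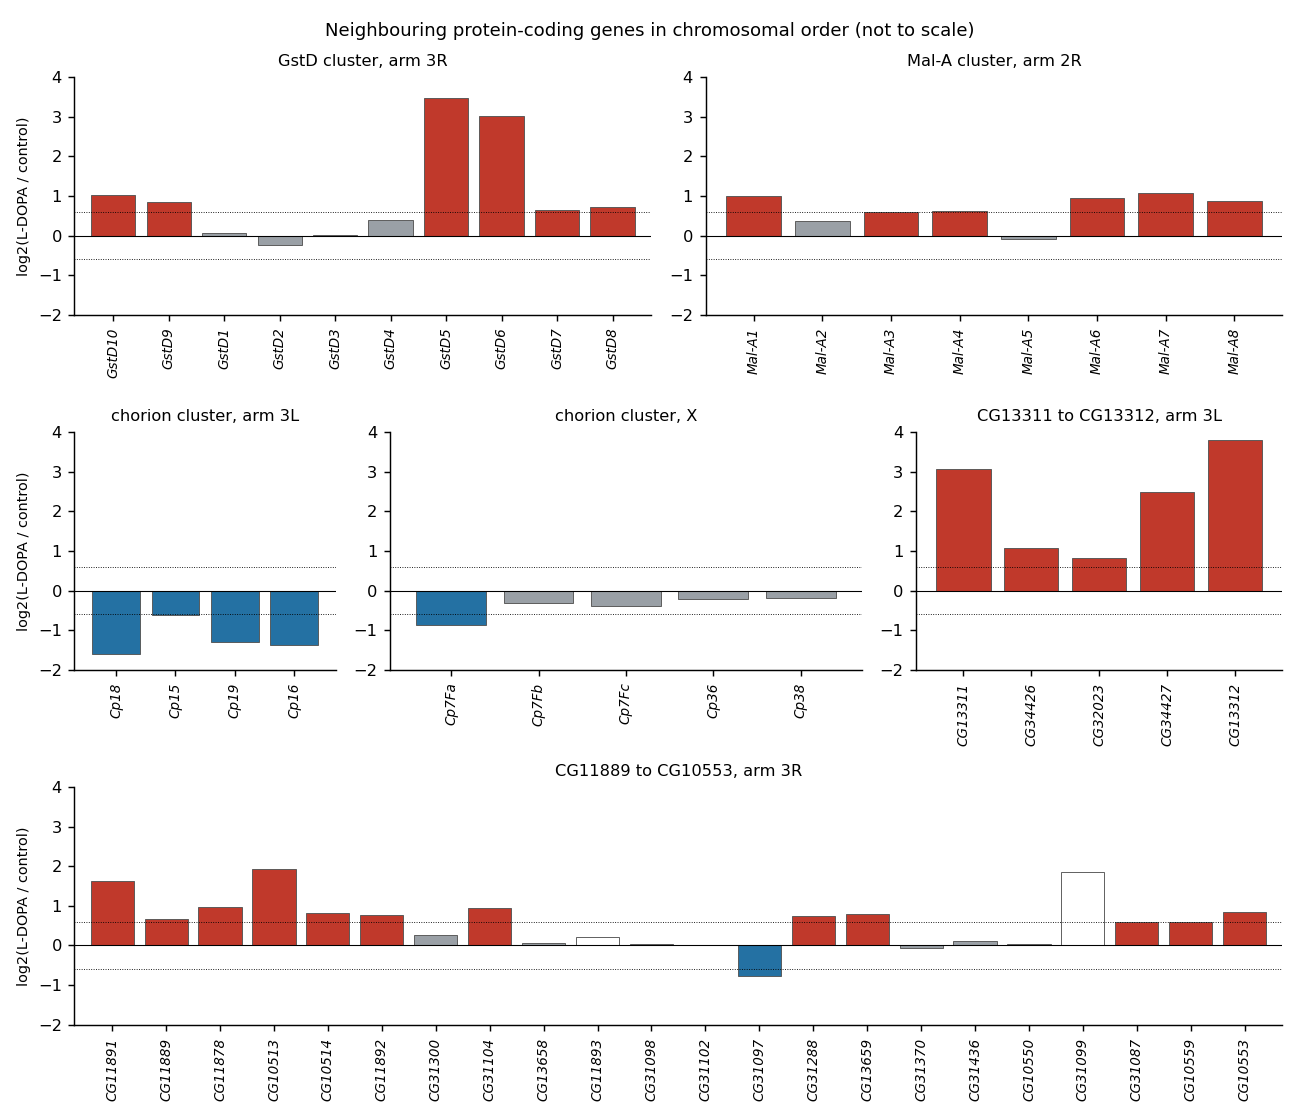
Log2 ratio of L-DOPA to control FPKM for neighbouring protein-coding genes in chromosomal order, in 6 regions. Red bars are higher and blue bars lower past 1.5-fold (dotted lines), grey bars are within it, and white bars are genes that were not kept. In the *GstD* cluster 6 of 10 genes are higher, and in the 3L chorion cluster 4 of 4 are lower. In the longest region, whose ends were set at runs of genes called higher, 12 of 20 kept genes are higher.

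By chromosome arm, the share of protein-coding genes called higher was 2.12% on 2R, 1.64% on 3L, 2.71% on 3R and 0.96% on X (15 of 1558), and the share called lower ran from 0.86% on 2R to 1.69% on 3L. On 2L 73 of 1789 were higher (4.08%), and without the repeated histone genes 33 of 1698 were (1.94%). No gene of the 74 on the fourth chromosome was past the limit.

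For a small number of symbols the tables of the other species gave values on the same foods. *D. simulans* shared 268 kept symbols with *D. melanogaster*, 19 of them past the limit in *D. melanogaster*, and *D. sechellia* shared 104, of which 10 were. *Mal-A1* was higher in all 3 species (0.99, 1.49 in *D. simulans* and 1.04 in *D. sechellia*). *Mal-A6* and *Mal-A8* were also higher in *D. simulans* (1.53 and 1.36), *Mal-A7* in *D. sechellia* (0.80) and *Fbp2* in *D. simulans* (0.59). *Cp16*, at -1.38 in *D. melanogaster*, was at -0.09 in *D. simulans* (4784 and 4509 FPKM), and *dec-1*, an eggshell gene, was at -0.63 and -0.30. *CecC* (266 and 109.6 FPKM, -1.28) and *CecA1* (1138 and 314 FPKM, -1.86) were lower in *D. sechellia* as in *D. melanogaster*. In *D. simulans* the attacin genes and *CecA1* were higher. The tables were normalized separately, the species differ in strain and genome build, and no difference between species was tested.

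**Figure D5:**
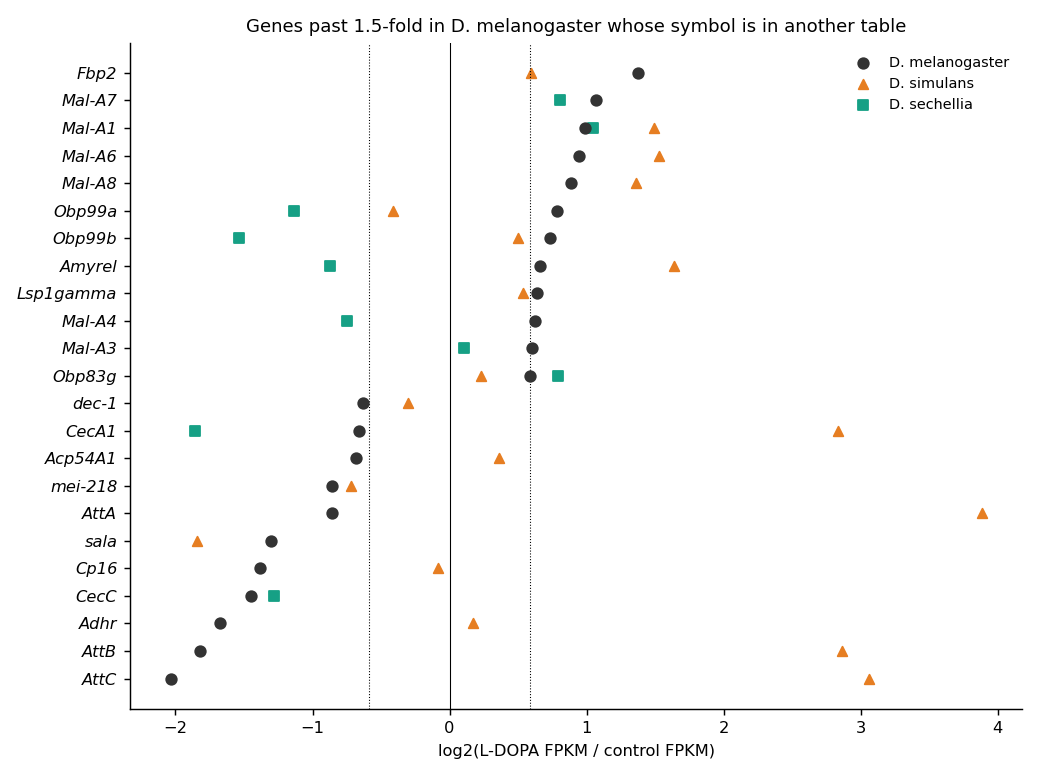
Log2 ratio of L-DOPA to control FPKM for genes past 1.5-fold (dotted lines) in *D. melanogaster* whose symbol was kept in the table of *D. simulans* or *D. sechellia*. Circles are *D. melanogaster*, triangles *D. simulans* and squares *D. sechellia*, 1 value per food and species. *Mal-A1* is to the right in all 3 species, and *AttA*, *AttB*, *AttC* and *CecA1* are on opposite sides in *D. melanogaster* and *D. simulans*.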

How the data were processed

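Whole adult *D. melanogaster* females were compared between control food and L-DOPA food, with 3 libraries per food. Per the labels and the study's methods, the authors checked reads with FastQC, aligned them to BDGP6 with Bowtie2, which does not place reads across introns, and ran Cuffdiff; versions are not given in the sources used here. The deposited FPKM values are 1 per gene and food over the libraries, corrected for gene length. The authors' columns of fold changes, test statistics, p-values and q-values were not used. A gene was kept at status OK and at least 1 FPKM on either food and called past 1.5-fold. A gene under 1 FPKM on one food was therefore kept through the other food, on which it is higher. Genes listed at 0 on one food count as past the limit and get no fold. Gene spans and classes came from the Ensembl annotation of BDGP6, which held 17512 of the 17649 identifiers. Shared symbols were matched by name. The members and gene lists were chosen with earlier results of these data known. The genes named were the 15 largest changes each way at 10 FPKM or more and above 0 on both foods, outside small structural RNA, the most abundant and up to 3 most changed members (at least 5 FPKM) of each list, the whole dopamine list, and up to 3 genes listed at 0 per direction; others were chosen after their values were seen. Scripts in Python 3.11.15 were tested on simulated data.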

Additional observations from a re-analysis of the deposited data

Results flagged for a closer look

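The direction past 1.5-fold was opposite in another species for 8 genes, and these differences were not tested, since each species has 1 value per food. In *D. simulans* the antimicrobial peptide genes *CecA1* (2.83), *AttA* (3.89), *AttC* (3.06) and *AttB* (2.86) were higher on L-DOPA, and in *D. melanogaster* they were lower (-0.66, -0.86, -2.04 and -1.82). On control food these 4 genes had 9.97 to 16.5 FPKM in *D. melanogaster* and 2.07 to 14.5 in *D. simulans*. *CecA1* was lower in *D. sechellia* (-1.86), as in *D. melanogaster*. In *D. sechellia* *Amyrel* (-0.87), *Mal-A4* (-0.75), *Obp99a* (-1.13) and *Obp99b* (-1.54) were lower, and in *D. melanogaster* they were higher (0.66, 0.62, 0.78 and 0.73).

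Rows outside the members held values of at least 1 FPKM. Of 115 genes without enough reads for the authors' test (status NOTEST) but with at least 1 FPKM on either food, 58 were higher past 1.5-fold and 41 lower, and 104 of the 115 were small structural RNA genes. These ratios were not tested and are not read as changes. *Hsc70-3* (169 and 159 FPKM) and *CG33713* (139 and 141 FPKM) had a failed status and were not counted.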

How the results depend on the processing

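The main counts were 381 higher and 247 lower. They were 154 and 114 at a 2-fold limit, 763 and 554 at the lowest limit tried, 250 and 117 from 5 FPKM, 171 and 86 from 10 FPKM, and 246 and 129 with 1 row per locus. A pseudocount of 1 left 158 lower genes. With protein-coding genes only, chosen with the values in view, after seeing the data, they were 225 and 129. The other settings kept both counts within 1.5 times. From 10 FPKM the median of the vitelline list was -0.42, that of the delta glutathione S-transferases 0.36 and that of the storage proteins 0.64. With 1 FPKM required on both foods the delta glutathione S-transferases had 0.53, and the counts over all genes were 291 higher and 166 lower. Of 292 counts of list members past the limit, 41 moved by over 1.5 times: the delta glutathione S-transferases went from 6 higher to 3 at a 2-fold limit and from 10 FPKM, the maltases from 7 to 2 and the chorion genes from 5 lower to 3 at a 2-fold limit, and the cuticle genes from 10 higher to 4 from 10 FPKM. Of 987 values of named genes under the alternatives, 17 moved by over 0.1, all with the pseudocount, which left 185 unmoved. The FPKM floors leave a gene's ratio as it is, and centring and rescaling shift all genes alike by less than 0.1. So only the pseudocount could move these values. None of these settings could change the sign of a call past the limit, so the signs were not tested. Rescaling both foods to the same sum moved the median gene to -0.03. No paired analysis was possible because the files hold 1 combined value per food, and no library could be left out for the same reason. The study lists reads per library, but the combined values cannot be split by library, and depth was not used.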

Other observations

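The replication-dependent histone genes, which lie in many near-identical repeats on arm 2L and whose mRNAs lack a poly(A) tail, had not been put on a list and were looked at after their values were seen. Of 111 copies 91 were kept, and of these 40 were higher and 0 lower, with a median over copies of 0.49. Of the 23 *His3* copies only 3 were kept, 2 of them higher. These 3 reached 1 FPKM only on L-DOPA, so they could be kept only above 0. All 23 *His3* copies summed to 10.7 FPKM on control food and 18.1 on L-DOPA (0.76). Of the 23 *His1* copies 22 were higher, and their summed value was 120.6 FPKM on control food and 196 on L-DOPA (0.70). The 22 kept *His4* copies summed to 66.2 and 97.9 FPKM (0.56) and the 23 *His2B* copies to 92.9 and 121 (0.38), whereas the 20 *His2A* copies summed to 1308 and 1319 FPKM (0.01). Reads of the copies cannot be assigned to one of them, so the copies are not separate observations. The part of the selection for mRNA in these values was not tested.

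Non-coding genes were past the limit more often than protein-coding ones. Of 479 genes in the ncRNA class, 52 were higher and 66 lower (24.6%), beside 3.68% in both directions for protein-coding genes. The class overlaps the small structural RNA list given above, as with *snmRNA:838*, so its counts are not separate from those of that list. The classes were not matched for expression level, and the spread was wider at low levels. *CR43834* (25.9 and 12.5 FPKM) and *CR45778* (38.9 and 19.2 FPKM) were the ncRNA genes among the 15 largest decreases. *CR45778* overlaps the gene *dUTPase* on the other strand, and whether counting used the strand is not given in the sources used here.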
